A study of Mus musculus with 24 samples.

Results

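Messenger RNA was compared between lung metastasis cells labelled shAsns-1 and lung metastasis cells labelled shRenilla, in 4 libraries each (replicates A to D). These 8 libraries of the 24 in the study were chosen by their labels alone, and all genes of the count table were considered. All groups were mouse 4T1-T breast cancer cells that had been infected with an shRNA, recovered from an animal and selected in 6-thioguanine (6TG), and their medium was DMEM to which non-essential amino acids had been added. The shAsns-1 hairpin is directed at Asns, and shRenilla is directed at a luciferase that mouse cells lack, so it serves as a control. 4T1 is a mammary carcinoma line from a BALB/c mouse that spreads to the lung, resists 6TG, and is told from host cells by that resistance. 4T1-T is known as a clonal line of it, so each group stands for 1 tumor clone. The tumor-derived libraries with the same hairpin labels, 4 and 4, were used to ask whether a difference was of the same size there. The labels do not say whether replicates were separate mice or cultures, so p-values measure only the spread between libraries, which may be technical.

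Asparagine synthetase, the product of Asns, makes asparagine from aspartate with glutamine as the nitrogen donor, and its transcription rises through ATF4 when amino acids run short. In breast cancer models, asparagine supply has been tied to metastasis and to epithelial-mesenchymal transition (EMT). In EMT, epithelial cells lose tight junctions, desmosomes and E-cadherin and gain mesenchymal proteins, and transcription factors of the SNAI, ZEB and TWIST families drive it.

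Total counts were 24.8 to 35.5 M in the 8 libraries (median 26.95 M), against 8.48 to 38 M in all 24. Levels are given as CPM, a gene's counts scaled to a common library size, and 12625 of 23478 genes passed the filter on low counts and were tested. Expression of the library shRenilla B stood apart: its median log2 distance to the rest of its group was 0.408, against 0.106 to 0.187 in the other 7. Markers of the carcinoma cells summed to 425 to 478 CPM in shAsns-1 and 428 to 600 in shRenilla, with the 428 in shRenilla B. Markers of lung epithelium summed to at most 0.381 CPM and of lymphocytes to at most 0.152, and Sftpa1, Cd3e, Cd3g and Cd4 were at 0 in all 8. These are bulk libraries, so fewer cells of a type and less RNA per cell cannot be told apart.

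The gene that the hairpin is directed at was measured first. Asns was at 219, 191, 176 and 189 CPM in the libraries labelled shAsns-1 A to D, and at 69.1, 53.1, 70.2 and 62.0 CPM in shRenilla A to D. The groups did not overlap, and the higher levels were in the libraries labelled for the knockdown. The difference of 130.3 CPM reached the smallest p that 4 against 4 allows (exact two-sided permutation test, p = 0.0286). The log2 fold change was 1.61 ± 0.16 (SE), with adjusted p = 2.62e-06. Lung cells with the other Asns hairpin, shAsns-2, held 44.6 ± 6.51 CPM (mean ± SD, n = 4). Since Asns goes against its label, each direction given here is between libraries as labelled, and nothing below describes cells with less Asns.

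On the GRCm38 build (mm10) Asns occupies positions 7675169 to 7693254 of the minus strand of chromosome 6. The 250 bases before its RefSeq start (chr6:7693210-7693459, minus strand, RefSeq on GRCm38.p6) are shown because they hold the core of the C/EBP-ATF response element, TGATGNAA, through which amino acid shortage is known to act on this gene. Capitals mark the match, TGATGAAA, which begins 23 bases before the start. The gene span above comes from another annotation, reaches into this window and includes the match.
Asns: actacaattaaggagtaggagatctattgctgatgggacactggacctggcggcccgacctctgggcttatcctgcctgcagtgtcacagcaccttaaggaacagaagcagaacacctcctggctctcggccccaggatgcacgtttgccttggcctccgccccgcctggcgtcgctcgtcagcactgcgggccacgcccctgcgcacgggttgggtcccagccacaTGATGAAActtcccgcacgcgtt
The motif, searched on both strands of windows of 300 bases (250 before a start and 50 after), was in 3.97% of 32851 RefSeq windows and 2.77% of the 9309 tested genes with a window. Of the 9 genes called higher in shAsns-1, 8 had a window, and Asns was the one with a match. A match describes the letters and is neither a site nor a cause.

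No other gene of amino acid metabolism on the lists was called by edgeR. Of 14 tested enzymes of asparagine, aspartate and glutamine metabolism, Asns was the one called (1 higher, 0 lower), and the median log2 fold change was -0.06 against 0.01 over all tested genes. Limma with library weights called 1 higher and 1 lower of the 14, and DESeq2 1 higher. Glul, for glutamine synthetase, was at 11.8 to 12.5 CPM in shAsns-1 and 9.05 to 11.6 in shRenilla (adjusted p = 0.326). None of 32 ATF4 and amino acid response genes was called (median 0.01), with 5 higher and 3 lower in all shAsns-1 libraries than in any shRenilla library. Over all tested genes such separation was seen for 4.85% above and 6.01% below. Of the 32, 3 were higher and 4 lower at an unadjusted p under 0.05, limma called 1 higher and 4 lower, and DESeq2 0. Cebpb, for a partner of ATF4, was at 44.1 to 49.6 against 33.5 to 41.4 CPM (adjusted p = 0.263). Ddit3, for the stress factor CHOP, was at 10.1 to 12.9 against 5.9 to 9.92 CPM (adjusted p = 0.311).

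None of 18 amino acid transporters was called by edgeR or DESeq2, and 1 was lower at an unadjusted p under 0.05 and by limma. None of 20 cytosolic aminoacyl-tRNA synthetases was called by edgeR or DESeq2, while 4 were lower at an unadjusted p under 0.05 and 3 by limma. Of the synthetases, 7 were lower in all shAsns-1 libraries than in any shRenilla library and 0 were higher, where 6.01% and 4.85% of all tested genes were. Nars, which charges tRNA with asparagine, was at 408 to 449 CPM in shAsns-1 and 530 to 593 in shRenilla (adjusted p = 0.244). Dars, which does so with aspartate, was at 282 to 316 against 336 to 497 CPM (adjusted p = 0.308). None of 17 serine and one-carbon enzymes was called by edgeR or DESeq2, with 2 lower at an unadjusted p under 0.05 and 3 by limma. In either direction, 13.2% of all tested genes had such a p and limma called 6.68%.

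Across the 12625 tested genes, 26 passed an adjusted p under 0.05, or 0.206%, with 9 higher (0.0713%) and 17 lower (0.135%) in shAsns-1. An unadjusted p under 0.05 was reached by 13.2% of genes. DESeq2 called 72 genes, or 0.532%, and limma with library weights 843, or 6.68%. Of the 17 lower genes, 17 had all shAsns-1 libraries below all shRenilla libraries, and of the 9 higher genes 8 had them above, Sparcl1 being the exception. Over all tested genes 6.01% lay below and 4.85% above in this way. The 26 were picked by their p in the same libraries, so their separation is not further evidence. A change of at least 2-fold was fitted for 11 of the 26, 5 higher and 6 lower. The genes that fell mostly had a mean log2 CPM over the 24 libraries above 1 (16 of 17), while 4 of the 9 that rose lay below it. That mean includes the tumor libraries, so it is not the level in the lung cells.

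**Figure D1:**
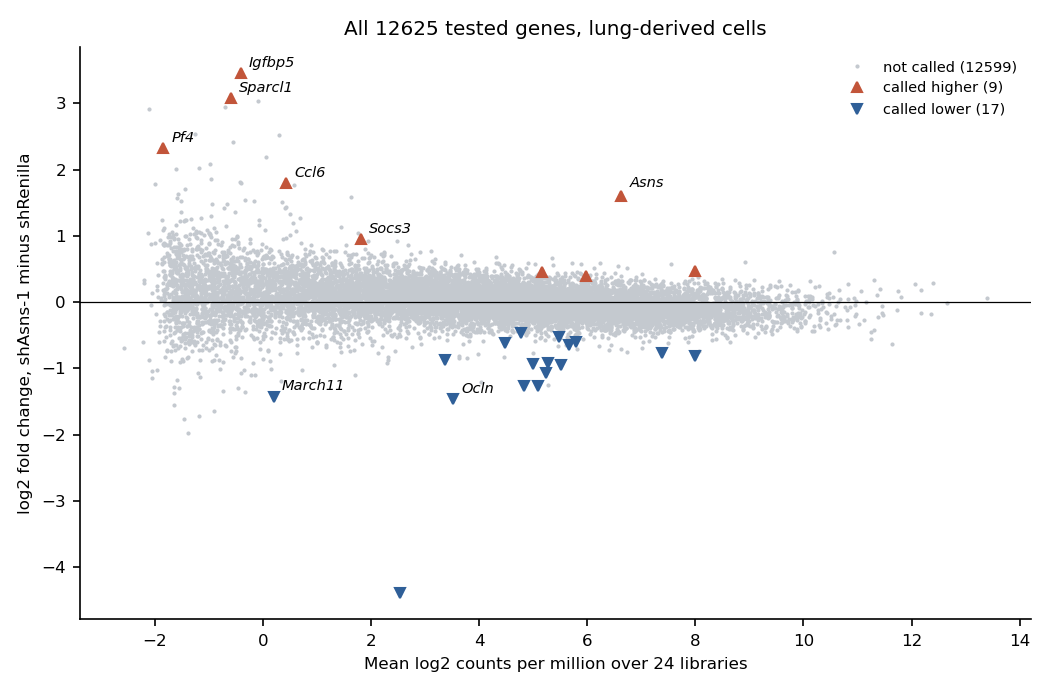
Log2 fold change between shAsns-1 and shRenilla in lung-derived cells (vertical axis) against mean log2 CPM over the 24 libraries (horizontal axis), 1 point per tested gene. Triangles mark the 9 genes called higher and the 17 called lower; Asns is the called gene above 1 on the vertical axis with a level far from the low end, and Igfbp5, Sparcl1, Pf4 and Ccl6 sit at low levels.

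The largest group among the lower genes was of cell junctions and the epithelial surface. Of 51 tested junction and other epithelial genes, 8 fell, 0 rose and 43 were not called. The median log2 fold change was -0.29, and 13 of the 51 lay below all shRenilla libraries and 0 above, where 6.01% and 4.85% of all tested genes did. DESeq2 called 9 members lower, of 59 in the count table, not all of which need have an adjusted p from it. Of the 13538 genes to which it gave an adjusted p, it called 0.421% lower. Limma called 17 of 51 lower, where it called 3.11% of all tested genes. With the compared groups alone in the fit the count was 0, and without shAsns-1 C it was 4. The list was drawn up with earlier results of these data known, so its direction is not independent evidence.

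Of the tight junction genes, Ocln and Marveld2 fell. Ocln, for occludin, a membrane protein of tight junctions, was at 2.78, 2.80, 1.98 and 1.81 CPM in shAsns-1 A to D and at 4.96, 8.85, 6.02 and 5.93 in shRenilla A to D. It was 2.76-fold lower (log2 fold change -1.47 ± 0.19, adjusted p = 0.000259), with no overlap. Marveld2, for tricellulin, which seals the corners where 3 cells meet, was at 4.42, 4.75, 3.88 and 4.86 against 7.58, 9.40, 6.84 and 8.76 CPM (-0.87 ± 0.13, adjusted p = 0.00183). Both genes lie on chromosome 13, Ocln at 100496507 to 100552718 and Marveld2 at 100595957 to 100616971, both on the minus strand. Claudin genes were not called: Cldn3 was at 0.696 to 1.26 CPM in shAsns-1 and 1.17 to 2.62 in shRenilla (adjusted p = 0.244). Cldn12 was at 54.5 to 58.7 against 62.7 to 106 CPM (adjusted p = 0.24).

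Of the genes for desmosomes, the spot-like junctions that anchor keratin filaments, Dsg2 and Perp fell. Dsg2, for the adhesion protein desmoglein 2, was at 11.9, 12.6, 10.5 and 10.0 CPM in shAsns-1 and at 19.1, 32.2, 21.1 and 21.6 in shRenilla (-1.06 ± 0.16, adjusted p = 0.00128). Perp, for a membrane protein of desmosomes, was at 78.0, 72.0, 65.6 and 74.7 against 118, 154, 112 and 109 CPM (-0.76 ± 0.14, adjusted p = 0.00821). Neither gene overlapped between groups. The call of Perp ended without shAsns-1 C (adjusted p = 0.0524). Dsp, for desmoplakin, which links these junctions to keratins, was at 28.7 to 32.2 against 35.2 to 45.2 CPM and was not called (adjusted p = 0.279).

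Epcam, for an adhesion molecule of epithelial cells, was at 12.9, 11.5, 8.27 and 10.7 CPM in shAsns-1 and at 22.0, 21.7, 19.9 and 19.7 in shRenilla. Its 4 shRenilla values lay close together, and the groups did not overlap (-0.94 ± 0.15, adjusted p = 0.00248). Krt7, for a keratin of simple epithelia, was at 3.46, 7.01, 3.67 and 4.32 against 11.8, 8.08, 12.4 and 11.8 CPM (-1.27 ± 0.25, adjusted p = 0.0238). The B libraries of the 2 groups came closest to each other. Epcam lies on chromosome 17 (87635979 to 87651129) and Krt7 on chromosome 15 (101411043 to 101430313), both on the plus strand. Krt7 was no longer called without any 1 of shAsns-1 A, C or D or shRenilla A, C or D (adjusted p = 0.0649 to 0.137). The keratin genes Krt8 and Krt18 were at higher levels, overlapped between groups and were not called by edgeR. Krt8 was at 157 to 184 CPM in shAsns-1 and 140 to 197 in shRenilla (adjusted p = 0.862). Krt18 was at 199 to 239 against 207 to 328 CPM (adjusted p = 0.382).

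Cdh1, for E-cadherin, the protein of adherens junctions, was at 19.2, 24.5, 19.0 and 18.6 CPM in shAsns-1 and at 30.8, 44.2, 30.6 and 27.7 in shRenilla. The groups did not overlap, yet the gene was not called (-0.71 ± 0.18, adjusted p = 0.125). It was called by DESeq2 (adjusted p = 0.0252) and by limma (adjusted p = 0.0185, with other alternatives reaching 0.683).

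**Figure D2:**
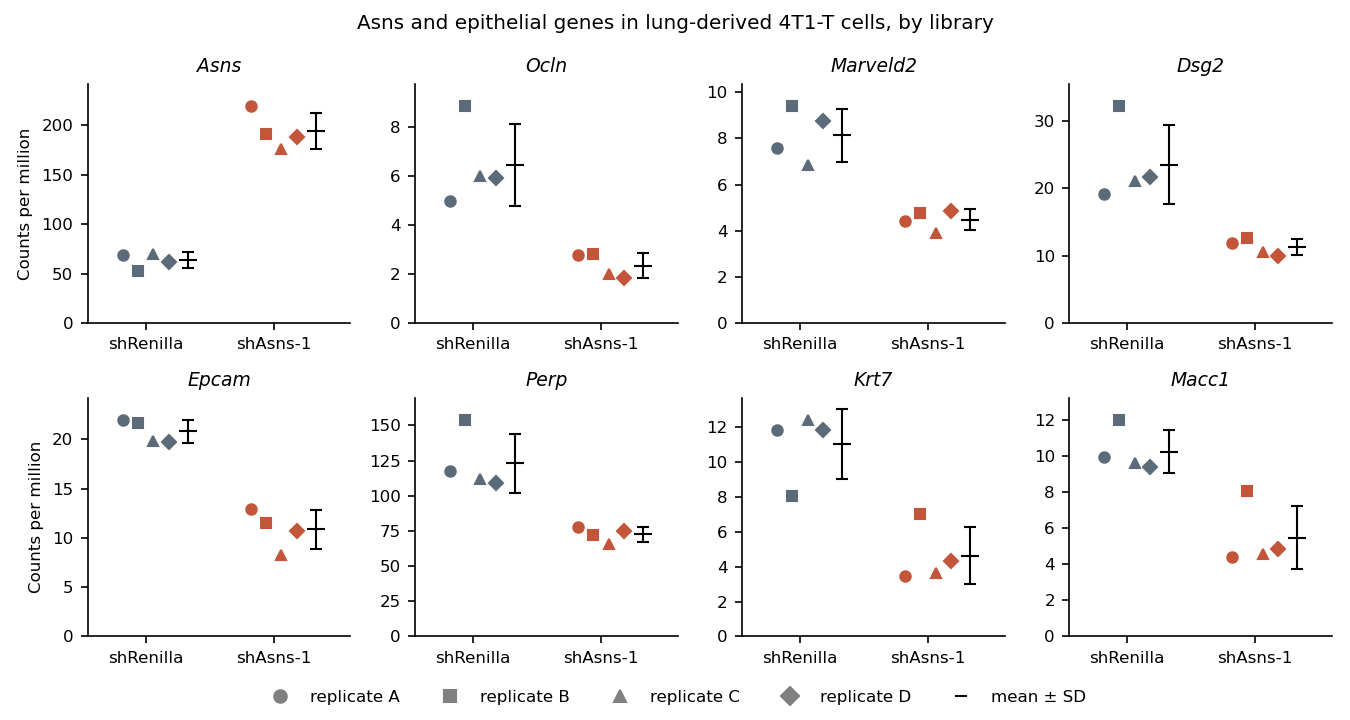
CPM of Asns and 7 epithelial genes in each lung library (vertical axes, from 0), with shRenilla on the left and shAsns-1 on the right of each panel. Symbols mark replicates A to D and black marks the mean ± SD. The groups of 4 do not overlap for any of the 8 genes; Asns is higher and the other 7 are lower in shAsns-1.

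Windows before the RefSeq starts of Ocln, Epcam and Krt7 are shown because members of the ZEB and SNAI families, the repressors of epithelial genes in EMT, are known to bind the E-box CAGGTG. Each line gives the 250 bases before a RefSeq start on GRCm38.p6: chr13:100552499-100552748 (minus strand) for Ocln, chr17:87635729-87635978 (plus strand) for Epcam and chr15:101412153-101412402 (plus strand) for Krt7. Ocln has more than 1 window, and the one shown came first when its windows were ranked by number of matches. Capitals mark CAGGTG or its reverse complement, CACCTG. The gene spans given above come from another annotation. That of Krt7 includes its whole window, that of Ocln includes most of its window with both matches, and that of Epcam begins where its window ends.
Ocln: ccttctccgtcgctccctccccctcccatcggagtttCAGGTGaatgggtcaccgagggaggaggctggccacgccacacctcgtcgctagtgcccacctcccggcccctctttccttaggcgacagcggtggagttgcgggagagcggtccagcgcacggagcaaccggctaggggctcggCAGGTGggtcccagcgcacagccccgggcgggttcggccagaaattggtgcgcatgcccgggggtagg
Epcam: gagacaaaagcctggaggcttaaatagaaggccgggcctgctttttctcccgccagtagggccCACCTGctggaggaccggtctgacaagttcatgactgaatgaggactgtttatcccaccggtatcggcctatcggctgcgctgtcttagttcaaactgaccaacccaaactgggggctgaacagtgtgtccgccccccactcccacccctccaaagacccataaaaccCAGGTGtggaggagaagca
Krt7: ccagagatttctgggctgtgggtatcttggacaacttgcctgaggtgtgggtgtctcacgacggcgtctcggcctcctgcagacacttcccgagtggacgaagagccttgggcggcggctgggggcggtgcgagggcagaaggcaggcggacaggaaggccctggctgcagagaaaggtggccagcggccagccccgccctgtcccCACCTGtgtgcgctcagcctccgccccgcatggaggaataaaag
Ocln holds 2 matches, which begin at -213 and -68 from the start, Epcam 2 at -187 and -19, and Krt7 1 at -44. Of the 17 genes called lower, 12 had a window, and 9 of them (75%) held the motif in the full 300 bases, on either strand. Those were Ano1, Epcam, Kcnk1, Krt7, Marveld2, Ocln, Plek2, Serpinb5 and Slc25a40, while Macc1, Slc35g1 and Tmem230 held none. The motif was in 20.5% of the 9309 tested genes with a window, in 20.2% of all windows, in 1 of the 8 called-higher genes with a window (Arpc1a), and in 19 of 30 tested junction and epithelial genes (63.3%). A gene with more than 1 window was counted if any of them held the motif. On the junction and epithelial list, uncalled genes such as Dsp and Krt8 held it too, and others such as Cldn12 and Krt14 did not. That list and the called-lower genes share members, and no test of these shares was made. Here too a match describes the letters and is neither a site nor a cause.

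Transcripts of the factors themselves did not pass the test. Snai1 was at 2.74, 2.80, 2.76 and 2.93 CPM in shAsns-1 and at 1.70, 1.32, 2.22 and 2.12 in shRenilla, with no overlap (0.61 ± 0.26, adjusted p = 0.342). Zeb1 was at 1.63 to 2.17 against 1.25 to 1.99 CPM (adjusted p = 0.749). Zeb2 was at 82.8 to 107 against 75.9 to 145 CPM, with the 145 in shRenilla B (adjusted p = 0.946). Twist1 was at 27.6 to 38.7 against 25.4 to 29.5 CPM (adjusted p = 0.414), and Snai2 was too low to be tested. Vim, for the mesenchymal filament vimentin, was at 3162 to 4084 against 3018 to 3284 CPM (adjusted p = 0.509). Fn1, for fibronectin, was at 931 to 1258 against 993 to 1459 CPM (adjusted p = 0.725). Of 34 tested mesenchymal genes none was called by edgeR or DESeq2 (median 0.31), with 12 higher and 3 lower at an unadjusted p under 0.05 and 6 higher and 1 lower by limma. Of the 34, 24 had the highest of their 4 shAsns-1 values in shAsns-1 D, whose mean log2 CPM over the list was 4.59, against 3.76 to 4.04 in shAsns-1 A to C and 3.43 to 3.84 in shRenilla. Without shAsns-1 D the counts at an unadjusted p under 0.05 were 6 higher and 2 lower (median 0.25). Prrx1, for a mesenchymal transcription factor, had the lowest p of the list and was at 0.647, 0.778, 0.803 and 3.55 CPM in shAsns-1 and at 0.251 to 0.513 in shRenilla (adjusted p = 0.133). Fibroblast markers were highest in shAsns-1 D as well, at a sum without Pdgfra of 28.8 CPM against 1.65 to 7.16 in the other 7 libraries, and their part in these values was not tested.

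Further genes that fell are known from carcinoma cells. Macc1, a regulator of signalling by the growth factor receptor MET, was at 4.38, 8.06, 4.55 and 4.83 CPM in shAsns-1 and at 9.92, 12.0, 9.60 and 9.39 in shRenilla (-0.91 ± 0.17, adjusted p = 0.00821). Its call ended without shAsns-1 C or D (adjusted p = 0.0524 and 0.0612). Among 29 growth factor receptors and ligands Macc1 was the 1 member called by edgeR and by DESeq2, while limma called 1 higher and 2 lower. Met itself was not called by edgeR (-0.40 ± 0.15, adjusted p = 0.296). Serpinb5, for the epithelial serpin maspin, was at 3.20, 6.19, 2.19 and 3.36 against 7.50, 9.62, 10.6 and 7.90 CPM (-1.27 ± 0.28, adjusted p = 0.046). Its call ended without any 1 library other than shAsns-1 B (adjusted p = 0.0678 to 0.229).

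For Macc1, Serpinb5, Krt7 and Cdh1 the highest of the 4 shAsns-1 values was in library B. Esrp1, for an epithelial splicing regulator, was looked at after its values were seen: it was at 0.228, 3.85, 0.401 and 0.0772 CPM in shAsns-1 A to D and at 2.20, 3.88, 2.04 and 2.00 in shRenilla. Library shAsns-1 B thus lay within the shRenilla range and the other 3 far below it, and Esrp1 was not called (-1.21, adjusted p = 0.368).

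Of the other lower genes, 4 encode membrane carriers or channels. Slc25a40, for a mitochondrial carrier linked to glutathione import, was at 19.6, 21.6, 20.4 and 21.4 CPM in shAsns-1 and at 34.8, 58.4, 32.7 and 32.0 in shRenilla (-0.93 ± 0.14, adjusted p = 0.00186). Kcnk1, for a potassium channel, was at 32.0, 25.2, 23.4 and 26.7 against 42.4, 45, 39.5 and 41.2 CPM (-0.65 ± 0.11, adjusted p = 0.00533). Ano1, for a calcium-activated chloride channel, was at 11.5 to 15.0 against 17.6 to 22.5 CPM (-0.62 ± 0.13, adjusted p = 0.0259). Slc35g1, of a transporter family, was at 24.2 to 28.3 against 33.6 to 50.1 CPM (-0.53 ± 0.11, adjusted p = 0.0437). None of the 4 overlapped between groups, and the highest values of Slc25a40, Kcnk1, Ano1 and Slc35g1 were in shRenilla B. The call of Ano1 ended without any 1 of shAsns-1 B or C or shRenilla A, B or C (adjusted p = 0.0687 to 0.163). That of Slc35g1 ended without any 1 shAsns-1 library or without shRenilla A or B (adjusted p = 0.0655 to 0.185).

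The remaining lower genes have varied roles. Sec11c, for a subunit of the signal peptidase that trims secreted proteins, was at 201, 150, 142 and 183 CPM in shAsns-1 and at 307, 279, 297 and 303 in shRenilla (-0.81 ± 0.13, adjusted p = 0.00343). Tmem230, for a protein of secretory vesicles, was at 46.6, 41.7, 40.1 and 44.6 against 63.0, 72.1, 62.0 and 64.4 CPM (-0.60 ± 0.09, adjusted p = 0.00186). March11, for a membrane-bound ubiquitin ligase, was at 0.838, 0.856, 0.83 and 0.695 against 1.78, 2.79, 1.86 and 2.23 CPM (-1.43 ± 0.26, adjusted p = 0.00792). All 3 were separated between groups. The call of March11 ended without shAsns-1 D (adjusted p = 0.0507). Plek2, a relative of the platelet protein pleckstrin, was at 17.0 to 20.9 against 25.2 to 28.3 CPM (-0.46 ± 0.09, adjusted p = 0.0238). Its call ended without any 1 of shAsns-1 A, B or D or shRenilla A or C (adjusted p = 0.0551 to 0.124).

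Among the genes that rose beside Asns, 4 were even across libraries. Socs3, a feedback inhibitor of cytokine signalling through STAT3, was at 4.23, 4.79, 5.19 and 5.02 CPM in shAsns-1 and at 2.39, 1.70, 2.26 and 3.55 in shRenilla (0.95 ± 0.17, adjusted p = 0.00792). Gng5, for a G protein gamma subunit, was at 270, 272, 281 and 280 against 194, 184, 211 and 204 CPM (0.48 ± 0.10, adjusted p = 0.0281). Lrrc42 was at 38.7 to 44.4 against 28.7 to 32.0 CPM (0.45 ± 0.09, adjusted p = 0.0251). Neither of these overlapped between groups, nor did Socs3. Arpc1a, for a subunit of the actin-branching Arp2/3 complex, was at 70.1 to 76.1 against 53.6 to 57.2 CPM (0.40 ± 0.09, adjusted p = 0.0459). An exon of Arpc1a overlaps Kpna7 on the other strand, and the strand setting of the counts is not given in the sources used here, so their reads cannot be told apart.

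These calls were less firm than that of Asns, which held under 18 of 18 alternatives (adjusted p at most 0.00085). Socs3 was lost without shRenilla A (adjusted p = 0.0514). Gng5 was lost without any 1 of shAsns-1 A, C or D or shRenilla A, B or D (0.0556 to 0.118). Lrrc42 was lost without any 1 of shAsns-1 B or C or shRenilla A, C or D (0.0549 to 0.0979). Arpc1a was lost without any 1 of the 8 libraries (0.07 to 0.163).

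The other 4 genes that rose were low and uneven, with their highest level in shAsns-1 D. Igfbp5, for a secreted binding protein of insulin-like growth factors, was at 2.25, 1.40, 1.20 and 9.50 CPM in shAsns-1 and at 0.0758, 0.257, 0.108 and 0.775 in shRenilla (3.46 ± 0.62, adjusted p = 0.00792). Sparcl1, for a matrix protein of stromal cells, was at 1.6, 0.389, 0.642 and 7.10 against 0.152, 0.321, 0.0717 and 0.536 CPM (3.08 ± 0.66, adjusted p = 0.0441), with overlap between groups. Ccl6, for a chemokine of myeloid cells, was at 2.70, 1.25, 1.66 and 6.83 against 0.606, 0.834, 0.932 and 1.13 CPM (1.80 ± 0.38, adjusted p = 0.0359). Pf4, for a chemokine of platelets and some macrophages, was at 0.571, 0.272, 0.455 and 1.16 against 0.0379, 0.0962, 0.179 and 0.149 CPM (2.33 ± 0.50, adjusted p = 0.0437).

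Without shAsns-1 D all 4 calls ended. Igfbp5 was then at a log2 fold change of 2.33 (adjusted p = 0.107), Sparcl1 at 1.63 (adjusted p = 0.335), Ccl6 at 1.09 (adjusted p = 0.241) and Pf4 at 1.87 (adjusted p = 0.236). Igfbp5 was also lost without shRenilla A or B (the lowest adjusted p was 0.0581). Sparcl1 and Ccl6 were lost without any 1 of shAsns-1 A and the 4 shRenilla libraries, and Pf4 without any 1 of those 5 or shAsns-1 C.

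Fibroblast markers, as a sum, were highest in the same library. The 9 fibroblast markers summed to 70 CPM in shAsns-1 D, against 34.3 to 35.5 in shAsns-1 A to C and 26.4 to 51.3 in shRenilla. Pdgfra made up most of that sum, at 28.4 to 30.8 CPM in shAsns-1 A to C, 41.2 in D and 24.7 to 48.1 in shRenilla. The other 8 markers summed to 28.8 CPM in shAsns-1 D, against 3.75 to 7.16 in A to C and 1.65 to 3.78 in shRenilla. Of the 9, 4 passed the filter and none was called by edgeR, DESeq2 or limma, with 3 higher at an unadjusted p under 0.05. Col3a1, for a fibrillar collagen, was at 1.6, 0.311, 0.669 and 8.53 CPM in shAsns-1 and at most 0.577 in shRenilla (2.94 ± 0.69, adjusted p = 0.0939). Dcn, for the matrix protein decorin, was at 2.40, 2.92, 1.31 and 8.61 against 0.932 to 1.67 CPM (adjusted p = 0.244). Pdgfra, the receptor that defines many fibroblasts, was not called (-0.02 ± 0.15, adjusted p = 0.962).

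Macrophage and leukocyte markers summed to 17.6 to 27.6 CPM in shAsns-1 and 20.3 to 24.8 in shRenilla, and 0 of 4 tested were called by edgeR, DESeq2 or limma, with 1 higher at an unadjusted p under 0.05. Lyz2, for lysozyme of myeloid cells, was at 4.11, 1.36, 2.60 and 7.84 against 1.04 to 1.82 CPM (adjusted p = 0.133). Ptprc, the pan-leukocyte gene for CD45, was at 0.195 to 0.562 against 0.119 to 0.545 CPM. Endothelial markers summed to 0.723 to 1.12 against 0.536 to 0.833 CPM, myofibroblast markers to 3.66 to 10.4 against 3.26 to 5.30, adipocyte markers to 0.562 to 1.24 against 0.53 to 1.34, and erythroid markers to 0.381 to 0.662 against 0.466 to 0.834 CPM. The part of other cells in the 4 uneven genes was not tested.

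Of 31 interferon-stimulated genes none was called by edgeR or DESeq2, 10 were higher at an unadjusted p under 0.05 and limma called 3 higher, and 28 had a log2 fold change above 0 (median 0.31). Without shAsns-1 D, 0 were higher and 1 lower at an unadjusted p under 0.05 (median 0.02). Ifit3, an antiviral gene, was at 1.45, 1.13, 1.52 and 12.8 CPM in shAsns-1 and at 1.02 to 1.44 in shRenilla (adjusted p = 0.201). Of 18 collagen genes none was called by edgeR or DESeq2 (median 0.29), 8 were higher and 1 lower at an unadjusted p under 0.05, and limma called 4 higher. Without shAsns-1 D, 4 were higher and 1 lower at that p. With shAsns-1 D included, 13.2% of all tested genes had such a p and limma called 6.68%, each in either direction.

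**Figure D3:**
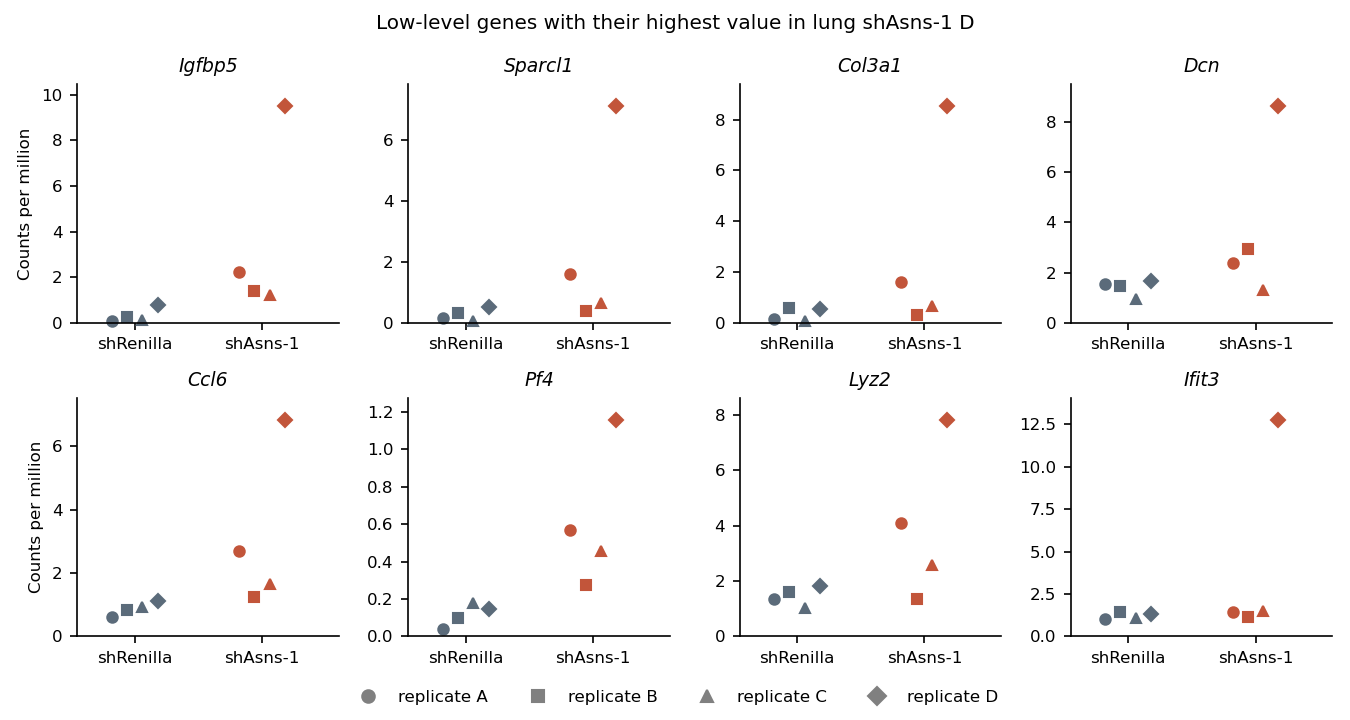
CPM of 8 low-level genes in each lung library (vertical axes, from 0), with shRenilla on the left and shAsns-1 on the right of each panel and a symbol for each replicate. In shAsns-1 the diamond of replicate D lies above the other 3 in all 8 panels, for Igfbp5 at 9.50 against 1.20 to 2.25 CPM.

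Metabolic and stress lists held no gene called by edgeR. Of 33 cholesterol and fatty acid synthesis genes 8 were lower at an unadjusted p under 0.05, DESeq2 called 2 and limma 5 lower, and 7 lay below all shRenilla libraries and 0 above (median -0.13). Over all tested genes 13.2% had such a p and limma called 6.68%, each in either direction. DESeq2 called 0.421% of its genes lower, and 6.01% of all tested genes lay below and 4.85% above. Cyp51, a sterol demethylase, was at 36.4, 29.4, 25.8 and 40 CPM in shAsns-1 and at 52.6, 77.7, 41.7 and 44.5 in shRenilla (-0.72 ± 0.19, adjusted p = 0.131). Sqle, for squalene epoxidase of the same pathway, was at 72.6 to 92.1 against 99.0 to 155 CPM (adjusted p = 0.212). Of 28 endoplasmic reticulum chaperones and unfolded protein response genes 23 had a log2 fold change below 0 (median -0.19). At an unadjusted p under 0.05, 7 of them were lower and 1 higher, DESeq2 called 0 and limma 2 lower. Of 32 NRF2 antioxidant and glutathione genes 6 lay above all shRenilla libraries and 0 below (median 0.10), the same number was higher at an unadjusted p under 0.05, and DESeq2 called 0 and limma 5 higher. Txnrd1, for a reductase of that response, was at 253 to 307 against 208 to 239 CPM (adjusted p = 0.259). The lists of ribosomal proteins (43 genes, median 0.15), mitosis and DNA replication (38, median 0.03), hypoxia and glycolysis (35, median 0.09) and the respiratory chain (34, median -0.03) held no gene called by edgeR or DESeq2 either. At an unadjusted p under 0.05 they had 1, 3, 2 and 0 genes, and limma called 0, 0, 2 and 1. The ribosomal protein genes summed to 18630 CPM in shRenilla B, against 27600 to 28810 in the other shRenilla libraries and 26850 to 29130 in shAsns-1, and their median was -0.03 without shRenilla B and -0.01 with limma. Without shRenilla B, 1 of the endoplasmic reticulum genes and 5 of the cholesterol and fatty acid genes were lower at an unadjusted p under 0.05.

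No gene was called by edgeR or DESeq2 among 34 chemokines and inflammatory cytokines (limma 1 higher, 3 lower), 28 TGF-beta and YAP response genes (2 and 1), 26 immediate early genes (2 and 0) or 20 integrins and laminins (0 and 2). The same held for 19 genes of purine salvage and thioguanine handling (limma 0 and 1), 17 metalloproteinases and inhibitors (0 and 0), 16 genes of MHC class I presentation and PD-L1 (2 and 0) and 10 of the RNAi machinery (1 and 0). At an unadjusted p under 0.05 these 8 lists had 7, 5, 4, 6, 2, 1, 2 and 1 genes. The share of all tested genes at such a p was 13.2%, and limma called 6.68%.

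Hprt, the enzyme that makes 6TG toxic, was at 422 to 494 CPM in shAsns-1 and 559 to 799 in shRenilla. The groups did not overlap, and the 799 was in shRenilla B. It was not called (-0.47 ± 0.16, adjusted p = 0.277), although limma with weights for the libraries called it lower (adjusted p = 0.0194, against 0.705 at the highest).

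**Figure D4:**
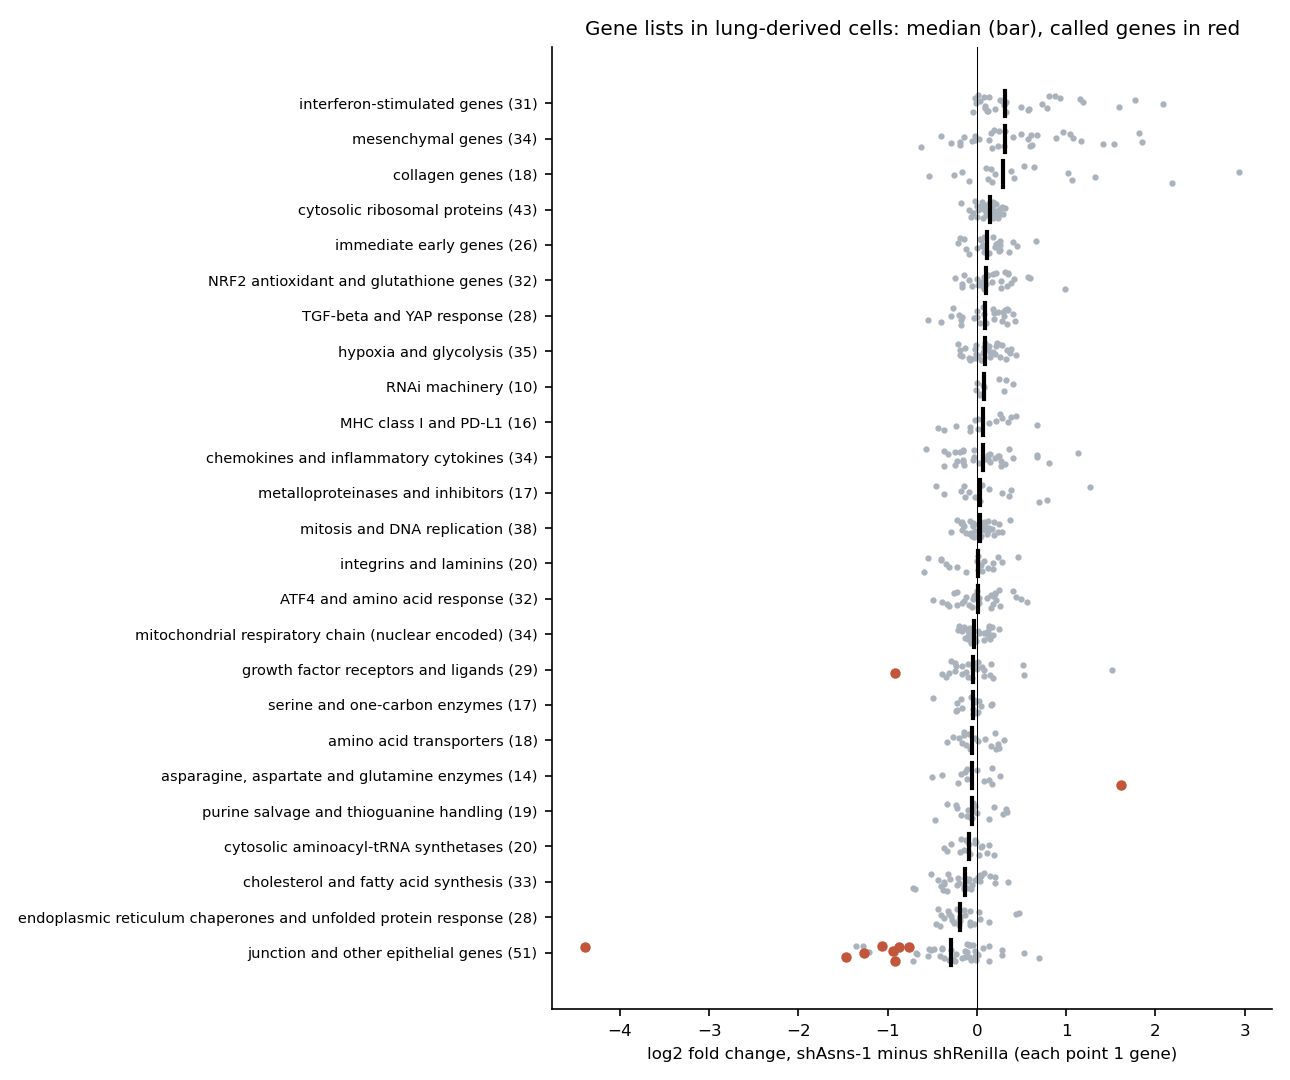
Log2 fold change between shAsns-1 and shRenilla in lung (horizontal axis) for each tested gene of 25 lists (vertical axis, number of tested genes in brackets), with the median as a black bar and called genes in red. The junction and epithelial list has 8 red points, all below 0; the other red points are Asns and Macc1, which also belongs to the epithelial list.

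Genes just outside the threshold, by adjusted p, were led by Elovl7, a fatty acid elongase, at 29.5 to 40.5 CPM in shAsns-1 and 41.0 to 69.5 in shRenilla (-0.65 ± 0.14, adjusted p = 0.0545). Just inside it was Serpinb5. Pi15 came next (3.03 ± 0.68, adjusted p = 0.0584), with 13.9 CPM in shAsns-1 D and at most 1.45 in any other of the 8 libraries. The other 8 of these 10 were Slco1a5, Ppic, Col3a1, Arap2, Ahdc1, Ift80, Tmem62 and Klhl32 (adjusted p = 0.0623 to 0.0939).

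The same labels were then compared in tumor-derived cells, whose libraries are not shared with the lung comparison. There 33.9% of tested genes were called, 16.2% higher and 17.7% lower. Of the 17 genes that fell in lung, 16 fell in tumor as well (94.1%), March11 being the exception. Of the 9 that rose in lung, 5 rose in tumor: Asns, Socs3, Gng5, Lrrc42 and Arpc1a. Ccl6 went the other way in tumor (-1.85 ± 0.43, adjusted p = 0.00145), and Igfbp5, Pf4 and Sparcl1 were not called there.

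The size of the fall was smaller in lung for most of the lower genes. That comparison rests on the tumor libraries labelled shAsns-1, so the site and other features of those libraries cannot be told apart. The difference between the lung and the tumor fold change was called for 14.2% of all tested genes, and for 14 of the 26. Among the 17 lower genes it was called in 11 with the smaller fall in lung, and in March11 with the larger one. Dsg2 fell by 2.56 on the log2 scale in tumor and by 1.06 in lung (difference 1.5 ± 0.22, adjusted p = 3.1e-05). Macc1 fell by 3.28 and 0.91 (difference 2.37 ± 0.23, adjusted p = 1.05e-07), Ocln by 2.39 and 1.47 (0.92 ± 0.26, adjusted p = 0.0181) and Epcam by 2.00 and 0.94 (1.06 ± 0.21, adjusted p = 0.00112). For Slc25a40, Tmem230 and Sec11c no difference was called (adjusted p = 0.51, 0.524 and 0.941), nor for Asns (0.57 ± 0.22, adjusted p = 0.085).

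Levels show where those differences lay. In cells labelled shAsns-1, Epcam was at 10.9 ± 1.95 CPM in lung and 19.6 ± 2.78 in tumor (n = 4 each), while with shRenilla it was at 20.8 ± 1.20 in lung and 78.4 ± 18.7 in tumor. Dsg2 was at 11.3 ± 1.21 and 13.0 ± 1.73 CPM with shAsns-1, and at 23.5 ± 5.87 and 76.9 ± 13.3 with shRenilla, in lung and tumor. Macc1 was at 5.45 ± 1.75 and 10.3 ± 1.45 CPM with shAsns-1, and at 10.2 ± 1.20 and 100 ± 13.0 with shRenilla. For the 3 genes the 2 sites were thus nearer to each other with shAsns-1 than with shRenilla. In tumor cells with the other Asns hairpin, shAsns-2, Epcam was at 125 ± 8.73 CPM, Dsg2 at 82.6 ± 11.0 and Macc1 at 92.2 ± 15.3. In lung cells with shAsns-2 they were at 20.7 ± 3.05, 20.9 ± 3.02 and 13.5 ± 1.46 CPM. For these genes the tumor cells labelled shAsns-1 thus lay nearer to the lung levels than either other tumor group, and the cause was not tested. Cdh1 was at 20.3 ± 2.80 and 36.4 ± 7.91 CPM with shAsns-1, and at 33.3 ± 7.38 and 226 ± 57.5 with shRenilla (difference of fold changes 1.92 ± 0.25, adjusted p = 8.18e-06).

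**Figure D5:**
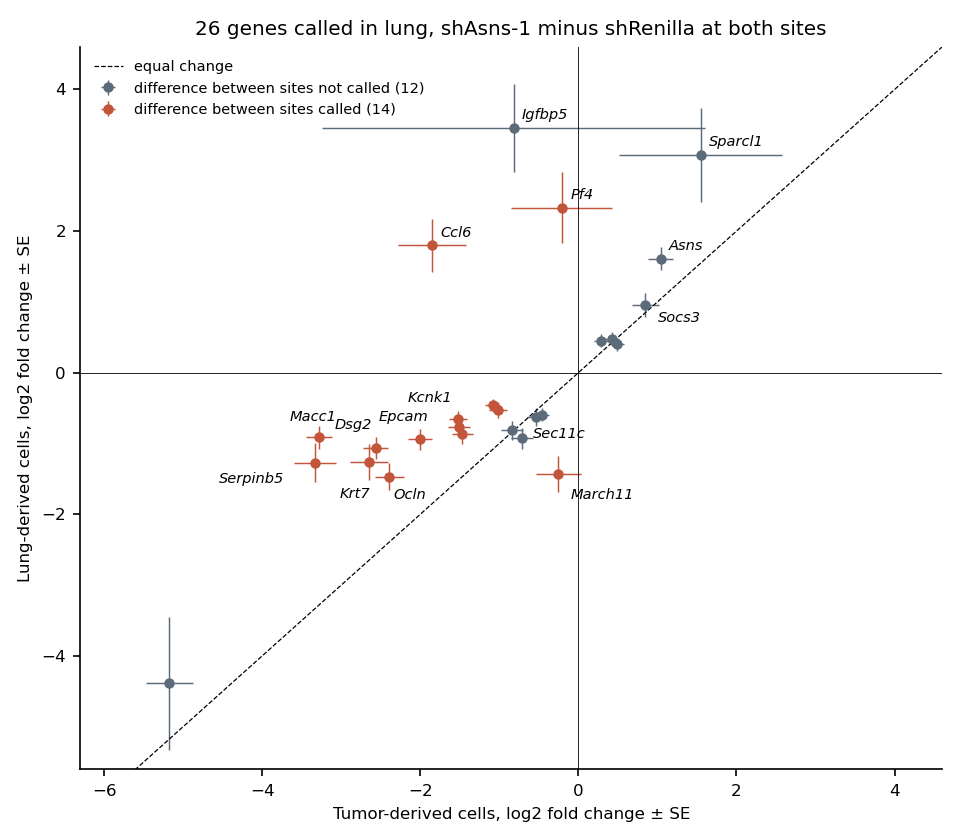
Log2 fold change ± SE between shAsns-1 and shRenilla in lung (vertical axis) and in tumor (horizontal axis) for the 26 genes called in lung; the dashed line marks equal change. Red points (14) had a called difference between the sites. Dsg2, Epcam, Krt7, Macc1 and Serpinb5 lie left of the line, with the larger fall in tumor, and Ccl6 has opposite signs.

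Over the 51 junction and epithelial genes, 39 fell and 1 rose in tumor (median -1.37), against 8 and 0 in lung (median -0.29). The difference was called for 33 of them, 32 above and 1 below 0, where 6.96% and 7.27% of all tested genes had one. Of the EMT genes other than Cdh1, the site difference was called and below 0 for the factors Twist1 (log2 fold change 0.30 in lung and 1.07 in tumor, adjusted p = 0.0268) and Zeb2 (0.03 and 0.75, adjusted p = 0.0177) and for the filament gene Vim (0.17 and 0.66, adjusted p = 0.0497). It was not called for Zeb1 (0.16 and 0.07, adjusted p = 0.876), nor for Snai1 (0.61 and -0.44, adjusted p = 0.0653) and Fn1 (-0.15 and -0.90, adjusted p = 0.053), whose difference lay above 0.

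The genes with the lowest p for that difference were, with 1 exception, not called in lung. Krt14, a basal keratin, was at 7.84 ± 0.449 CPM in lung shAsns-1 and 8.32 ± 2.21 in lung shRenilla, while in tumor it was at 5.66 ± 0.649 and 50.8 ± 3.80 CPM (difference of log2 fold changes 3.09 ± 0.25, adjusted p = 7.13e-09). Tslp, a cytokine of epithelial cells, was at 382 ± 66 and 567 ± 110 CPM in lung, and at 480 ± 98.4 and 46.0 ± 10.4 in tumor (difference -3.95 ± 0.27, adjusted p = 4.55e-10). Edn1, for the vessel-constricting peptide endothelin 1, was at 1.57 ± 0.441 and 1.81 ± 0.551 CPM in lung, and at 1.02 ± 0.160 and 17.5 ± 1.80 in tumor. With shAsns-2, tumor cells held Krt14 at 42.1 ± 9.51, Tslp at 56.7 ± 14.3 and Edn1 at 8.84 ± 1.43 CPM. Lung cells with shAsns-2 held them at 9.79 ± 2.22, 366 ± 28.7 and 1.37 ± 0.701 CPM. For Krt14, Tslp and Edn1 too, the tumor cells labelled shAsns-1 lay nearer to the lung levels than either other tumor group. The cause was not tested. Plk2, Wisp1, Cxcl16, Adam12 and Moxd1 followed Krt14 in direction, and Sema6d, Trib2, Amigo2, Map3k5, Phex, Ifi203 and Angpt1 followed Tslp. The exception among the 16 genes was Macc1.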

How the data were processed

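Lung-derived 4T1-T cells labelled shAsns-1 and shRenilla were compared, 4 libraries each, with the tumor-derived libraries of the same labels for the site difference. The file the authors deposited holds whole-number read counts per gene symbol, made with Bowtie2 and HTSeq on mm10, per the submitters' processing notes, which give no versions; annotation and strand setting are not given in the sources used here. RNA was prepared with Trizol and the NuGEN Ovation RNAseq V2 kit, per the labels' protocols.

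Tests came from the quasi-likelihood fit of edgeR 4.0.16 (R 4.3.3) with a mean for each of the 6 groups of 4 libraries, scaled by TMM after filterByExpr, with Benjamini-Hochberg adjustment over the 12625 tested genes and calls at an adjusted p under 0.05. A standard error is the size of the log2 fold change divided by the root of its F. CPM uses TMM-scaled library sizes. The site difference is the lung minus the tumor log2 fold change in the same fit. The biological coefficient of variation was 14.9%, and total counts of 24.8 to 35.5 M limit the precision of the genes under 1 CPM most. No library duplicated another (lowest chi-square per degree of freedom 4.74 within and 5.66 between groups). On simulated counts for the lung comparison (12518 genes) 46.3, 76.1 and 98.5% of genes changed 1.5-, 2- and 4-fold were recovered, with 0 false calls among 12318 unchanged genes. Each gene was drawn separately from its fitted means and spread, so no simulated library stood apart as shRenilla B did. The recovery and false calls in the real libraries may therefore differ.

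Named were Asns, Hprt and 8 EMT genes, all called genes but 1, which is not reported here, the called and some of the 4 lowest-p members of each list, the 10 genes next to the threshold, and 8 genes per direction of the site difference. The members, 25 pathway lists and 9 marker lists were chosen with earlier results of these data known. Alternatives were DESeq2 1.42.0, its size factors, limma 3.58.1 with library weights, no filter, other sets of libraries in the fit, thinned counts, the replicate letter as a block, and leaving out libraries. Positions are from the GRCm38 annotation, promoter windows from RefSeq on GRCm38.p6 (20 of 26 called genes matched). Figures were drawn with matplotlib 3.10.9.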

Additional observations from a re-analysis of the deposited data

Results flagged for a closer look

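In 11 of 84 groups of 4 values examined, 1 library lay far from the other 3 (a gap to the next value beyond Dixon's 95% critical value), which chance gives in about 1 in 20 groups. Of the 11, 6 were in shRenilla B: Slc25a40 at 58.4 CPM (others 32 to 34.8), Slc35g1 at 50.1 (33.6 to 36.1), Hprt at 799 (559 to 574), Zeb2 at 145 (75.9 to 82.5), Krt7 at 8.08 (11.8 to 12.4) and the summed carcinoma markers at 428 (590 to 600). In shAsns-1 B, Macc1 was at 8.06 CPM (4.38 to 4.83) and Cdh1 at 24.5 (18.6 to 19.2). In shAsns-1 D, Igfbp5 was at 9.5 CPM (1.2 to 2.25), March11 at 0.695 (0.83 to 0.856) and the summed fibroblast markers at 70 (34.3 to 35.5).

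The change with the shAsns-1 label differed between lung and tumor for 18 of the 33 genes examined, by edgeR, against 14.2% of all tested genes. Apart from Hprt and the EMT genes, the 33 were picked because they were called in lung. The higher share is therefore no separate result about these genes. As lung minus tumor log2 fold change, the difference was above 0 for Ccl6 (3.66), Pf4 (2.54), Macc1 (2.37), Serpinb5 (2.06), Cdh1 (1.92), Dsg2 (1.5), Krt7 (1.38), Epcam (1.06), Ocln (0.924), Kcnk1 (0.878), Perp (0.753), Plek2 (0.626), Marveld2 (0.6) and Slc35g1 (0.484). It was below 0 for March11 (-1.17), Twist1 (-0.765), Zeb2 (-0.728) and Vim (-0.486).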

How the results depend on the processing

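The 26 genes called in lung became 72 with DESeq2 (15 higher, 57 lower; 0.532% of its 13538 tested genes), 843 with limma and library weights (450 and 393; 6.68%, shRenilla B at a weight of 0.0913, and all 26 among them), 16 with counts thinned to the smallest library, 8 with the 12 lung libraries alone in the fit, and 1 (Asns) with the compared groups alone. They were 25 with DESeq2 size factors and 20 with no filter, so the share of higher calls, 34.6% in the reported fit, ranged from 20% with no filter to 53.4% with limma among the fits over 24 libraries. Leaving out 1 library gave 12 to 29 calls: 12 without shRenilla A, 13 without shAsns-1 D and 16 without shRenilla B. Without shAsns-1 D and shRenilla B together, an alternative chosen after seeing the data, 9 were called, 2 higher and 7 lower. The cause was not tested, beyond fewer libraries in these fits.

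The 1797 genes with a called difference between sites became 3707 with limma, and 1334 to 1858 when 1 library was left out. The Asns difference of 130.3 CPM was 121.8 to 136.1 CPM when 1 library was left out, with the exact p at 0.0286. None of 498 values of single genes under the alternatives reversed in sign. Ocln, Dsg2, Marveld2, Tmem230, Epcam and Sec11c were called under every alternative except the compared groups alone (adjusted p = 0.102 to 0.107). Calls in the junction and epithelial list were 8 in the reported fit, 17 with limma, 9 with DESeq2, 4 with the lung libraries alone, 0 with the compared groups alone, 4 to 8 with 1 library left out, and 4 without shAsns-1 D and shRenilla B.

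With the replicate letter as a block, 26 genes were called in lung (6 higher and 20 lower, 22 of them shared with the reported 26) and 1831 for the site difference. Same-letter libraries of the 2 groups correlated at -0.000963, 0.0387, 0.1 and 0.118 for A to D, and C and D correlated best with their own letter, A and B did not, so the letters were not taken as pairs. At this depth genes such as Pf4 and Sparcl1 rest on few counts over 4 libraries (69 and 260 in shAsns-1, and 14 and 34 in shRenilla).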
